A study of Mus musculus with 24 samples.

Results

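The Shank2 knock-out (KO) and wild-type (WT) brains compared here are those of the 7 postnatal day 14 (P14) libraries with forebrain markers, out of 12 P14 libraries and 24 libraries in all. They were chosen from the measured levels of 3 region markers. A library was taken when Cbln3, a cerebellin of cerebellar granule neurons, was below 100 normalised counts, Emx2, a transcription factor of the developing cortex, lay between 250 and 400, and Omp, the olfactory marker protein, was below 100. In the 7 libraries Cbln3 ran from 19.2 to 42.3, Emx2 from 279 to 386 and Omp from 6.3 to 22.8. The nearest P14 libraries outside the limits were KO replicate 6, with Omp at 457, and KO replicate 4, with Omp at 968. WT replicate 5 was at 40401 for Omp, and WT replicate 3 and KO replicate 1 were at 6083 and 10664 for Cbln3.

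All 24 mice of the series are C57BL/6N and naïve to drug treatment, with brain as the labelled tissue, and the design has 6 mice per age (P14 or P25) and genotype. The WT group here is P14 WT replicates 1, 2, 4 and 6 (n = 4), and the KO group is P14 KO replicates 2, 3 and 5 (n = 3). The labels mark WT replicates 4 and 6 and KO replicate 5 as a second batch, and WT replicates 1 and 2 and KO replicates 2 and 3 carry no batch mark and are called the first batch. The labels do not name the deleted exons of the KO allele, and they do not say how the tissue was dissected.

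SHANK2 is a scaffold of the postsynaptic density of excitatory synapses. SHANK proteins hold together, through partners such as DLGAP and HOMER proteins, the complexes around NMDA, AMPA and metabotropic glutamate receptors, and SHANK2 variants are linked to autism and intellectual disability. In the mouse forebrain the second postnatal week is a time of synapse formation, of maturing inhibitory circuits and of early myelination.

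The 7 libraries held from 28965443 to 35155485 recovered reads, over 24574 to 26057 genes with at least 1 read. Mitochondrial genes took from 4.032% to 4.52% of the reads in the first batch and from 3.464% to 3.643% in the second. The first principal component carried 52% of the variance and separated the batches, with all first-batch libraries below 0 and all second-batch libraries above. Batch was a term of the models unless another is named. No source says whether the RNA came from separate litters or days, so p-values measure the spread between these libraries.

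The region was also read from markers that the rule had not used. Neurod6, a transcription factor of cortical and hippocampal excitatory neurons, ran from 3025 to 5049 in WT and from 3617 to 4209 in KO, against 230 to 1133 in the other 5 P14 libraries. Tbr1, a factor of deep cortical layers, ran from 3242 to 5104 and from 3356 to 4872. Gabra6, a GABA receptor subunit of cerebellar granule neurons, was at most 5.58 in any of the 7, and the pituitary hormones Gh, Prl, Lhb and Fshb were at 0 in all 7. The labels name whole brain, whereas these levels are those of libraries with little or no cerebellar or pituitary RNA, and forebrain is used here in that sense.

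Shank2 (chromosome 7, 144001928 to 144424494 on the plus strand of GRCm38) was the one gene that passed, and it fell. It measured 7412, 8218, 10738 and 12778 normalised counts in WT replicates 1, 2, 4 and 6, and 3951, 3886 and 6458 in KO replicates 2, 3 and 5. Every KO library lay below every WT library, and both groups were higher in the second batch. The KO mean was 50.1% of the WT mean in the first batch and 54.9% in the second. The log2 difference, KO minus WT, was −0.94 (SE 0.07, limma adjusted p = 0.0108), and all differences below are on this log2(normalised count + 1) scale. The 2-sided exact permutation test gave p = 0.0571, the smallest that its 35 arrangements allow. The exact permutation test within batches gave p = 0.111, the smallest that those 18 allow. A count over the whole gene does not show which exons the remaining reads came from.

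Shank2 was 1 of 17750 tested genes (0.00563%), and the smallest adjusted p of any other gene was 0.295. At the unadjusted level 1636 genes (9.22%) had an unadjusted p under 0.05, 941 of them higher (5.3%) and 695 lower (3.92%) in KO. The edgeR quasi-likelihood test on the recovered reads called 1 gene, Shank2 (adjusted p = 0.00984). DESeq2 called 48 (0.27%), 25 higher and 23 lower, each with the same sign in limma. The call of Shank2 itself was lost without KO replicate 2, 3 or 5 or WT replicate 1 or 2, with adjusted p-values from 0.00164 to 0.151 over the 7 omissions, while the difference stayed between −0.99 and −0.89. As a second description, a gene was counted as separated when every KO library lay on one side of every WT library. That held for 517 genes (2.91%) with KO higher and 365 (2.06%) with KO lower, together 882 (4.97%).

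Genes past the 3′ end of Shank2 on chromosome 7 held several separated members, led by Gm26793. Of 9 tested genes from the 3′ end of Shank2 to 1 Mb beyond it, 3 were higher and 2 lower in every KO library (55.6%, against 4.97% of all genes). This share is a description, since Gm26793 is among the 3 higher genes. It was known beforehand to differ in these libraries, and it reached the mean-value filter only through its KO values. On the other side, 1 of 17 tested genes within 1 Mb was separated (5.88%), the potassium channel gene Kcnq1 (0.34, SE 0.18), and between 1 and 10 Mb it was 5 of 91 (5.49%). Those 5 were 9430038I01Rik, Lrrc27, Paox, Irf7 and Prr33. Without KO replicate 5 the 9 genes gave 3 higher and 3 lower (6.78% and 5.45% of all genes under the same omission). Of the 9, 0 passed in limma and 5 had an unadjusted p under 0.05, where 9.22% of all genes did.

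Gm26793 (144894560 to 144897461, minus strand) is annotated as an antisense noncoding gene and lies 470066 bases past the end of Shank2. It measured 8.96, 3.35, 4.03 and 0 in WT replicates 1, 2, 4 and 6, and 56.4, 54.2 and 54.6 in KO replicates 2, 3 and 5. The KO libraries were close to each other, and every one was far above every WT library. The difference was 3.71 (SE 0.61, limma adjusted p = 0.415), and the exact permutation test gave p = 0.0571, or 0.111 within batches, the smallest that each allows. Gm26793 was already known to differ in these libraries when it was chosen, so this is a description. The TruSeq library kit in the labels keeps no strand information, so the count may include reads of a transcript from the other strand.

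LTO1 (144915100 to 144931701), which takes part in ribosome maturation, was next to it. It measured 506, 497, 543 and 545 in WT and 611, 638 and 690 in KO (0.33, SE 0.07, limma adjusted p = 0.496). Mrgprf, an orphan receptor of the Mas-related family, measured from 29.2 to 65.9 in WT and from 81.9 to 115 in KO (1.06, SE 0.22). Lower in every KO library were Tpcn2, an endolysosomal cation channel (128 to 159 in WT, 92.4 to 105 in KO; −0.55, SE 0.12), and Ppfia1, a liprin scaffold (1550 to 1654 and 1283 to 1433; −0.21, SE 0.06). Cttn, the actin-binding protein cortactin and the gene nearest to the end of Shank2, overlapped between the groups (5075 to 5498 in WT, 5084 to 5508 in KO; 0.03, SE 0.05).

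**Figure D1:**
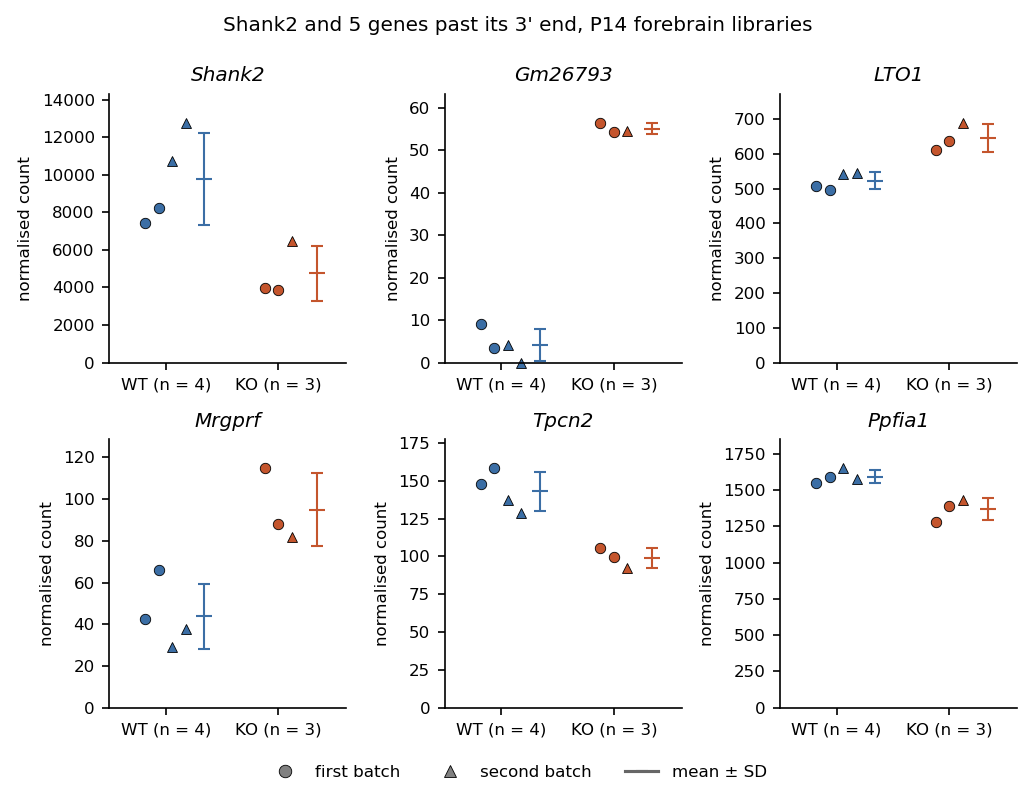
Normalised count (y axis, linear, from 0) of Shank2 and 5 genes past its end in each P14 forebrain library, WT (n = 4, blue) and KO (n = 3, orange), with circles for the first and triangles for the second batch and the mean ± SD beside them. In all 6 panels the KO points lie wholly above or wholly below the WT points; Gm26793 is between 54.2 and 56.4 in KO and at most 8.96 in WT.

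**Figure D2:**
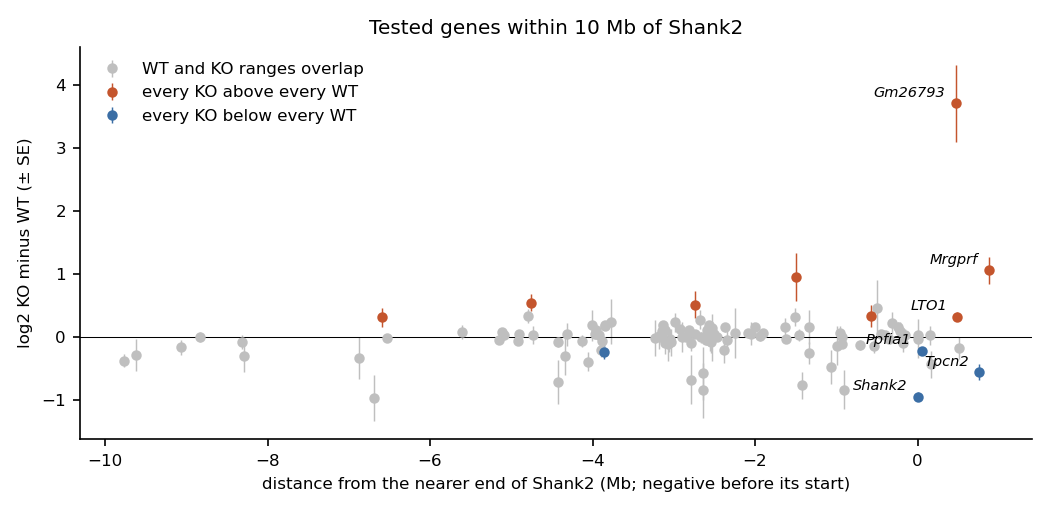
Log2 difference, KO minus WT, with its SE (y axis) of each tested gene within 10 Mb of Shank2 against its distance from the nearer end of Shank2 (x axis, Mb). Coloured points are genes whose WT and KO ranges do not overlap; 5 of the 9 genes past the end of Shank2 are coloured, and grey points near 0 fill most of the rest.

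The same neighbours were read in libraries the rule had not used. The P25 libraries with forebrain markers are those with Cbln3 and Omp below 100 and Emx2 of at least 250, with no upper limit; P25 KO replicate 3 was at 409 for Emx2. In these 4 libraries Gm26793 was at 2.55 and 2.99 in WT and at 73.9 and 52.5 in KO (4.07, SE 0.73, limma adjusted p = 0.0506). LTO1 was at 525 and 492 in WT and 589 and 628 in KO (0.26, SE 0.08). Mrgprf was at 26.3 and 57.7 in WT and 130 and 82.1 in KO (1.38, SE 0.39). In these libraries 15.3% of all genes were higher in both KO libraries. The P25 values of Tpcn2 and Ppfia1 are not reported here. The 4 libraries are also among the 17 that follow, so the readings are not separate. In the 17 libraries outside the rule, of all regions and both ages, Gm26793 differed by 2.80 (unadjusted p = 3e-05), with overlapping ranges of 0 to 5.35 in WT and 0.912 to 73.9 in KO, and LTO1 by 0.18 (unadjusted p = 0.0163), and Mrgprf, Tpcn2 and Ppfia1 had unadjusted p-values of 0.774, 0.273 and 0.497. The limma fit of those 17 libraries passed 0 of 18351 genes (0%), with 555 (3.02%) at an unadjusted p under 0.05; Shank2 was at −1.10 there (adjusted p = 0.275).

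Lgi2, which encodes a secreted leucine-rich protein of the family that binds ADAM receptors at synapses, had the smallest p after Shank2. It measured 4547, 4880, 4868 and 4977 in WT replicates 1, 2, 4 and 6, and 3846, 3561 and 3569 in KO replicates 2, 3 and 5. Every KO library was below every WT library, with a difference of −0.39 (SE 0.05, limma adjusted p = 0.295, DESeq2 adjusted p = 1.76e-05). In the P25 forebrain libraries Lgi2 was at 4955 and 5060 in WT and at 3980 and 3642 in KO, a difference of −0.40 (SE 0.08, limma adjusted p = 0.0641). Over the 17 libraries outside the rule the difference was −0.21 (unadjusted p = 0.124), and KO ran from 2922 to 6472.

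Syt2, a synaptotagmin that triggers fast transmitter release, measured 1288, 1337, 1222 and 1523 in WT and 831, 925 and 854 in KO. The groups did not overlap, and the difference was −0.62 (SE 0.09, limma adjusted p = 0.295, DESeq2 adjusted p = 4.75e-06). Nefh, the heavy neurofilament of large axons, measured 2978, 2989, 3022 and 2936 in WT and 1896, 2328 and 2249 in KO. The WT libraries lay close together and all were above KO (−0.47, SE 0.07, limma adjusted p = 0.415, DESeq2 adjusted p = 8.61e-05). In the P25 forebrain libraries neither gene was separated: Syt2 differed by 0.11 (SE 0.36) and Nefh by 0.40 (SE 0.20).

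The other genes with the smallest p among the lower ones were Lrrc55, an auxiliary subunit of potassium channels (−0.53, SE 0.10), Ctxn3 (−0.98, SE 0.18), Col9a3, a collagen chain (−0.39, SE 0.07), Zic5 (−0.68, SE 0.13), Slc17a6, the vesicular glutamate transporter of subcortical neurons (−0.95, SE 0.18, and −0.61 without KO replicate 5), and Ntng1, an adhesion protein of thalamic axons (−0.56, SE 0.11). With Shank2, 8 of these 10 genes were separated at P14, where 2.06% of all genes were separated and lower. The 10 were picked by p in the same libraries, so this count adds no support. In the P25 forebrain libraries 5 of the 10 had a lower KO mean and 3 were lower in both KO libraries, Shank2, Lgi2 and Lrrc55, where 17.7% of all genes were. Slc17a6 was higher there in both KO libraries (855 and 1215 in WT, 5172 and 1305 in KO).

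Among the 10 genes with the smallest p and higher values in KO, 3 are Pisd and its pseudogene copies. Pisd, phosphatidylserine decarboxylase of the inner mitochondrial membrane, measured 1087, 1530, 1582 and 1229 in WT and 2843, 2772 and 2353 in KO (0.98, SE 0.14, limma adjusted p = 0.295, DESeq2 adjusted p = 1.02e-09). Every KO library was above every WT library. Its pseudogene copies Pisd-ps1 (1.62, SE 0.26) and Pisd-ps2 (1.29, SE 0.22) were separated as well, as was Gm28661 (2.36, SE 0.34), a predicted gene. Reads of near-identical copies can be split among them or dropped, so the count of any single copy is uncertain. In the 17 libraries outside the rule Pisd differed by −0.03, Pisd-ps1 by −0.02, Pisd-ps2 by 0.00 and Gm28661 by 0.21, and Pisd-ps1 ran from 762 to 16184 in WT alone.

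The remaining genes of that group were Mpped1 (0.35, SE 0.06), Klf13, a Krüppel-like transcription factor (0.25, SE 0.04), Ypel1 (0.48, SE 0.09), Rasal1, a RAS GTPase-activating protein (0.25, SE 0.05), LTO1 and Stx1a, the syntaxin of synaptic vesicle fusion (0.37, SE 0.08). Of these 10 genes, 6 were separated at P14, where 2.91% of all genes were separated and higher. They too were picked by p in the same libraries, so the count adds no support. In the P25 forebrain libraries 4 of 10 had a higher KO mean and 1, LTO1, was higher in both KO libraries, where 15.3% of all genes were.

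Transcripts of the other SHANK family members and of NMDA receptors overlapped between the groups. Shank1 measured 13907, 14779, 17543 and 19084 in WT and 15972, 15923 and 21621 in KO (0.19, SE 0.05, limma adjusted p = 0.496). Shank3 measured from 8481 to 10572 in WT and from 8782 to 12906 in KO (0.14, SE 0.07, and 0.03 without KO replicate 5). The obligate NMDA receptor subunit Grin1 differed by 0.08 (SE 0.05), Grin2a by 0.09 (SE 0.11) and Grin2b by 0.16 (SE 0.06, unadjusted p = 0.0332). Of 7 NMDA receptor subunits 0 were separated, where 4.97% of all genes were. Their median difference was 0.08 beside 0.02 over all tested genes.

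Most scaffold and kinase genes had small positive differences. Of 25 postsynaptic scaffold genes, 23 lay above 0, where 9806 of all 17750 did, and the median was 0.12. At an unadjusted p under 0.05, 9 were higher and 1 lower, where 5.3% and 3.92% of all genes were. The separated member (4.97% of all genes were separated) was Baiap2l1 (−0.63, SE 0.28, and −0.39 without KO replicate 5), a relative of the actin adaptor IRSp53. An example was Dlg3, which encodes SAP102 (7819 to 8583 in WT, 8536 to 10120 in KO; 0.17, SE 0.05). Of 24 calcium and kinase signalling genes, 23 lay above 0, 11 were higher and 0 lower at an unadjusted p under 0.05 (5.3% and 3.92% of all genes), and the median was 0.15. Camk2a, the alpha subunit of the major postsynaptic kinase, measured 71605, 71085, 85604 and 84936 in WT and 75118, 89341 and 120337 in KO (0.32, SE 0.09). Of the 24 genes 2 were separated and higher, where 2.91% of all genes were. Among them was Calm2, a calmodulin gene (50379 to 55121 in WT, 57506 to 59351 in KO, difference 0.14, SE 0.05). KO replicate 5 held the highest value of Camk2a and Dlg3. Without it Camk2a was at 0.20, the scaffold median was 0.11 and the kinase median 0.11. In the P25 forebrain libraries the scaffold median was −0.19 and the kinase median −0.17, of the other sign.

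Among glutamate receptors, 2 of 16 AMPA receptor subunits and auxiliary proteins were separated, both higher, where 2.91% of all genes were: Cnih3, a cornichon that escorts AMPA receptors (1837 to 2409 in WT, 2439 to 3338 in KO; 0.34, SE 0.13), and Shisa7 (0.16, SE 0.06). Cnih3 and Shisa7 were each at 0.10 without KO replicate 5. Gria3 overlapped (0.19, SE 0.07). Of 7 kainate receptor subunits Grik5 was separated and higher (0.15, SE 0.05, and 0.09 without KO replicate 5), where 2.91% of all genes were. Of 7 metabotropic receptors 1 was separated and lower, Grm4 (−0.23, SE 0.08, and −0.12 without KO replicate 5), where 2.06% of all genes were. Grm2, a presynaptic autoreceptor, had the smallest p of them and overlapped (1800 to 3295 in WT, 1544 to 2262 in KO; −0.34, SE 0.08, DESeq2 adjusted p = 0.0416), and it was at −0.21 without KO replicate 5. Of 14 GABA-A receptor subunits 0 were separated (median 0.00), where 4.97% of all genes were. Of 27 synaptic adhesion genes 1 was separated and higher, where 2.91% of all genes were. It was Lrfn2, a leucine-rich partner of PSD-95 (0.21, SE 0.06). Slitrk5 was at 0.21 (SE 0.07). Of 28 presynaptic release genes 3 were separated and lower, where 2.06% of all genes were, Syt2, Slc17a6 and the priming factor Unc13c (−0.28, SE 0.06). The 51 tested autism risk genes had a median of 0.03, with 2 separated and higher, Cul3 (0.08, SE 0.04) and Foxp1 (0.18, SE 0.07), a share near the 2.91% of all genes.

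Immediate early genes are transcribed within minutes of neuronal activity or growth factor signalling, without new protein synthesis. Of the 30 tested, 7 were lower in every KO library (2.06% of all genes were) and 0 were higher in every one (2.91%), 24 lay below 0, and the median was −0.25. At an unadjusted p under 0.05, 11 were lower and 1 higher (3.92% and 5.3% of all genes), and 0 of 30 passed in limma. The 7 separated genes were Arc, Nr4a1, Fos, Fosl2, Junb, Dusp5 and Ier2. Without KO replicate 5 the count was 13 of 30 lower (5.45% of all genes) with a median of −0.15, and without WT replicate 6, which had the highest value of all 7 genes, it was 8 of 30 (3.08%) with a median of −0.19.

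The promoters of 3 of the separated genes are printed because binding sites of activity-dependent factors lie in promoters of this class, and these 3 are among the 5 separated genes with a promoter in the table. Each runs from 250 bases before to 50 bases after the start in the RefSeq annotation of GRCm38.p6, 5′ to 3′ on the gene's strand. Fos is at chr12:85473640-85473939 on the plus strand, Nr4a1 at chr15:101266596-101266895 on the plus strand and Junb at chr8:84978699-84978998 on the minus strand. Capitals mark TGACG on either strand (CGTCA on the printed strand), the half-site of the cAMP response element bound by CREB, and TATAAA on the printed strand.
Fos: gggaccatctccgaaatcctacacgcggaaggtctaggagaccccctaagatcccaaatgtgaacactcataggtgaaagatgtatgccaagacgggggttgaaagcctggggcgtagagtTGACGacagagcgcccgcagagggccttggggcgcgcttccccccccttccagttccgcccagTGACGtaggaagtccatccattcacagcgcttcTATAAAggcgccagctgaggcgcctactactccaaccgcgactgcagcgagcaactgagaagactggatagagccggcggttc
Nr4a1: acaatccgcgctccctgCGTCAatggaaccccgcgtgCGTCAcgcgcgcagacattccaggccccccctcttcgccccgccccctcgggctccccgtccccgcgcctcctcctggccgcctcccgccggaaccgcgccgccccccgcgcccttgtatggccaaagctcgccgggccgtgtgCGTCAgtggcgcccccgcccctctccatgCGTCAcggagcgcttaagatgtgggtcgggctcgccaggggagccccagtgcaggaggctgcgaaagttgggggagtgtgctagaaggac
Junb: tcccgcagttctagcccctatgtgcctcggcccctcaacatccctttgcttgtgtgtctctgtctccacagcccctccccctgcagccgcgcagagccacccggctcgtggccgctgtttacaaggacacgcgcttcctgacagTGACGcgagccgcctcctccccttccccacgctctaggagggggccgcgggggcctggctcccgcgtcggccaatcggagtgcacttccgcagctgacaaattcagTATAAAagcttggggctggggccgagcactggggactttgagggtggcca
Nr4a1 held 4 half-sites, Fos 2 and Junb 1, and Fos and Junb held TATAAA. It began 33 bases before the annotated start in Fos and at the first transcribed base in Junb. A half-site was found in 20.8% of all 32851 promoters of this length, TATAAA in 8.32%, and the full element TGACGTCA, searched on both strands, in 1.79%. A RefSeq promoter was matched for 23 of the 30 list members, in 36 windows. The shares above count single windows, whereas the next counts are of genes with a site in any window, so the 2 are unlike. Of the 23, 17 held a half-site in at least 1 window, among them 4 of the 5 separated genes with a promoter. None of those 5 held the full element in these windows, and 3 of the 23 did. The CArG box (CC, 6 letters of A or T, GG) was also searched. It was in 1.63% of all promoters, in 2 of the 23 genes and in 1 of those 5. Fosl2, also among the 5, held none of these strings. A match is a string of letters, and binding was not measured.

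Arc, the activity-regulated cytoskeletal protein that acts in AMPA receptor endocytosis, measured 2896, 3157, 3677 and 6313 in WT replicates 1, 2, 4 and 6, and 1687, 2076 and 2183 in KO replicates 2, 3 and 5. WT replicate 6 was high, and all 3 KO libraries were below the lowest WT library. The difference was −0.87 (SE 0.18, limma adjusted p = 0.496, DESeq2 adjusted p = 0.106), and it ran from −0.99 to −0.69 as each library was left out. Nr4a1, an orphan nuclear receptor, measured 2141, 2302, 2731 and 4105 in WT and 1643, 1455 and 1913 in KO (−0.64, SE 0.13, limma adjusted p = 0.496, DESeq2 adjusted p = 0.000744). Fos, a subunit of the AP-1 transcription factor, measured 766, 914, 965 and 1557 in WT and 508, 673 and 744 in KO (−0.60, SE 0.17, limma adjusted p = 0.496, DESeq2 adjusted p = 0.045).

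The AP-1 subunit Junb measured 1089, 1092, 1178 and 1716 in WT and 940, 917 and 1002 in KO (−0.34, SE 0.12). Fosl2 (−0.49, SE 0.16), the dual-specificity phosphatase Dusp5 (−0.59, SE 0.19) and Ier2 (−0.35, SE 0.13) followed, and Dusp6, another phosphatase of that family, overlapped (−0.24, SE 0.07). Without KO replicate 5 Fosl2 was at −0.14, Dusp5 at −0.23 and Ier2 at −0.21. Egr3, a zinc finger factor, was the member on the other side, with 844, 1030, 1496 and 1842 in WT and 1097, 1138 and 2326 in KO (0.35, SE 0.10, unadjusted p = 0.00722). In the P25 forebrain libraries the list's median was −0.06, with Arc at −0.53 (SE 0.38), Nr4a1 at −0.31 (SE 0.29) and Fos at −0.38 (SE 0.44), and in the other 5 P14 libraries it was 0.09. For these 3 genes the KO effect did not differ past the threshold from that at P25 (limma adjusted p from 0.805 to 0.93) or from that in the other P14 libraries (0.57 to 0.664).

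**Figure D3:**
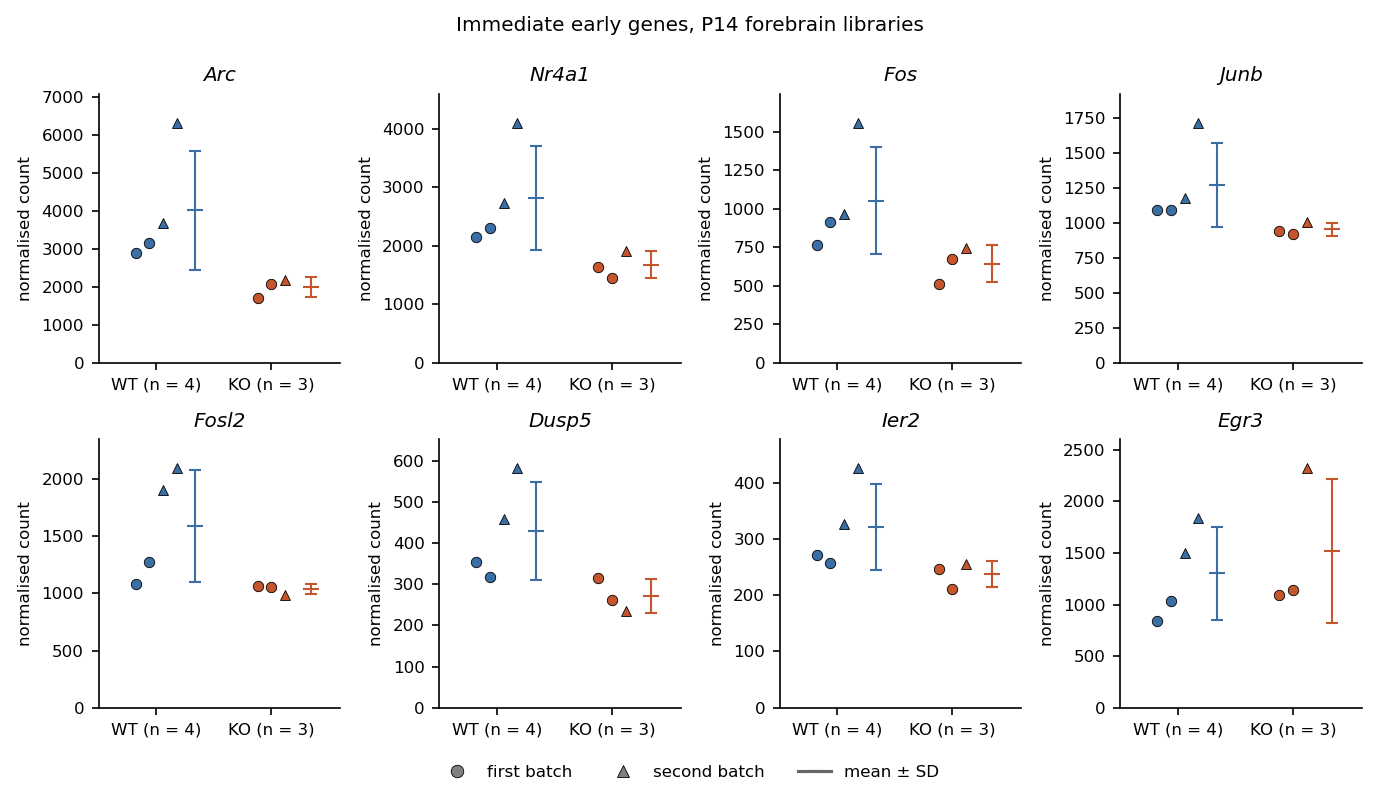
Normalised count (y axis, linear, from 0) of 8 immediate early genes in each P14 forebrain library, WT (n = 4, blue) and KO (n = 3, orange), circles for the first and triangles for the second batch, mean ± SD beside them. In 7 panels the KO points lie below every WT point, and Egr3 overlaps, with KO replicate 5 highest at 2326.

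Most tested markers of choroid plexus, myelin, ependyma and thalamus had negative differences, 0 of them passed in limma, and their summed levels overlapped between WT and KO except for thalamus. In the P25 forebrain libraries the medians were 0.56 (choroid plexus), 0.11 (myelin), 0.40 (ependyma) and 0.71 (thalamus), of the other sign. In bulk tissue, fewer cells of a type and less RNA per cell cannot be told apart. All 23 tested choroid plexus genes lay below 0, with a median of −1.46, 1 of 23 was separated and lower (2.06% of all genes were), and 7 were lower at an unadjusted p under 0.05 (3.92% of all genes were). The summed level of the 24 listed genes in the table was 29133, 28134, 10214 and 79571 in WT replicates 1, 2, 4 and 6 and 18773, 17697 and 9607 in KO replicates 2, 3 and 5. Ttr, the thyroid hormone carrier of choroid plexus, spanned 1684 to 51401 in WT and 110 to 8725 in KO (−3.16, SE 1.29). The groups overlapped because WT replicate 4 was low. The median was −0.69 without KO replicate 5 and −0.73 without WT replicate 6. Sostdc1, the separated gene, a secreted BMP and WNT antagonist, differed by −1.46 (SE 0.49) and Prlr, the prolactin receptor, by −1.51 (SE 0.43). They were at −0.68 and −0.86 without KO replicate 5, and Ttr was at −1.01. Calml4, a calmodulin-like gene, measured from 17.1 to 120 in WT and from 3.15 to 26 in KO.

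All 25 tested genes of myelinating oligodendrocytes lay below 0, with a median of −0.64. Of the 25, 19 had an unadjusted p under 0.05 (3.92% of all genes were lower). Of the 25, 0 were separated (4.97% of all genes were). The summed level was 66066 in KO replicate 5, 141669 in KO replicate 2 and 275753 in KO replicate 3, beside 173564 to 243340 in WT. One KO library was therefore lowest of all 7 and another highest. Without KO replicate 5 the median was −0.22. Myrf, the transcription factor of myelin genes, measured 1878, 1665, 1741 and 1375 in WT and 1225, 1672 and 699 in KO (−0.64, SE 0.19). Enpp6 and Gal3st1, markers of newly forming and of myelinating oligodendrocytes, differed by −0.50 (SE 0.14) and −0.47 (SE 0.14). Myrf was at −0.30, Enpp6 at −0.24 and Gal3st1 at −0.23 without KO replicate 5. Of 14 precursor genes 2 were separated and lower, where 2.06% of all genes were (median −0.16, and −0.09 without KO replicate 5). They were Cspg4, the NG2 proteoglycan (−0.22, SE 0.07), and Matn4 (−0.23, SE 0.10, and −0.06 without KO replicate 5). Pdgfra overlapped (−0.30, SE 0.09).

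Of 19 thalamic genes 12 were lower and 1 higher at an unadjusted p under 0.05 (3.92% and 5.3% of all genes). Of the 19, 2 were separated and lower, where 2.06% of all genes were (Slc17a6 and Amotl1, the latter at −0.27, SE 0.07), and the median was −0.47, or −0.40 without KO replicate 5. Tcf7l2, a WNT effector high in thalamus, measured 840, 689, 299 and 198 in WT and 319, 408 and 166 in KO (−0.86, SE 0.18, DESeq2 adjusted p = 0.000744). Both second-batch WT libraries were below both first-batch KO libraries, so the groups overlapped. The summed thalamic level was 24882, 21871, 19999 and 22376 in WT and 18012, 19577 and 18384 in KO. Every KO library was below every WT library in that sum. The same held for the sums of the lists for cerebellar granule neurons (11836 to 15195 in WT, 10914 to 11370 in KO), oligodendrocyte precursors and pituitary hormones. Cbln3 was at most 42.3 in these libraries, and 4 pituitary genes were at 0 in all 7. The granule and pituitary sums are therefore not read as levels of those cells. Zic1 and Calb2 are on both the granule and the thalamic list. The sum of AMPA receptor subunits and auxiliary proteins was higher in every KO library. Of 16 ependymal genes 13 lay below 0 (median −0.49, and −0.26 without KO replicate 5), with Foxj1, the master factor of motile cilia, at −0.39 (SE 0.10) and Cfap43 at −0.64 (SE 0.16). Hypothalamic neuropeptides had a median of −0.38, with Gal, galanin, at −1.92 (SE 0.48; −1.12 without KO replicate 5), and this median was −0.04 to −0.60 as each library was left out.

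Cortical and other markers were closer to 0. Of 14 upper-layer genes 12 lay above 0 (median 0.20, and 0.06 without KO replicate 5), with Lmo4 at 0.33 (SE 0.07, DESeq2 adjusted p = 0.0446) and Mef2c at 0.25 (SE 0.08). Of 22 interneuron genes 1 (2.91% of all genes were separated and higher), Htr3a, a serotonin-gated channel of one interneuron class, was separated and higher (160 to 202 in WT, 229 to 263 in KO; 0.42, SE 0.13). Gad1, the main GABA-synthesising enzyme, overlapped (−0.24, SE 0.05, DESeq2 adjusted p = 0.045), as did Crhbp (−0.38, SE 0.12). Of 12 perineuronal net genes 11 lay below 0 (median −0.23, −0.13 without KO replicate 5, and 0.05 with all 12 P14 libraries), with Adamts4, a protease also made by oligodendrocytes, at −0.73 (SE 0.22) and the separated Has3, a hyaluronan synthase, at −0.41 (SE 0.15). Has3 was the 1 separated gene of the 12, where 2.06% of all genes were separated and lower. Has3 was at −0.12, Adamts4 at −0.35 and Crhbp at −0.23 without KO replicate 5. Of 22 striatal genes 1 was separated and higher, where 2.91% of all genes were, and the median was −0.05. It was Foxp1 (0.18, SE 0.07, and 0.06 without KO replicate 5).

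Of 20 astrocyte genes 19 lay below 0 (7944 of all 17750 did) and 4 were separated and lower (median −0.13), where 2.06% of all genes were. They were the bicarbonate transporter Slc4a4 (5045 to 5834 in WT, 4372 to 4681 in KO; −0.27, SE 0.06, DESeq2 adjusted p = 0.0465), the sodium pump subunit Atp1b2 (−0.18, SE 0.05), the glial factor Sox9 (−0.29, SE 0.10) and the gap junction protein Gja1 (−0.15, SE 0.06). Without KO replicate 5 the count was 5 (5.45% of all genes), and without WT replicate 6 it was 7 (3.08%). Of 20 microglial genes 3 were separated and higher (2.91% of all genes were), by small amounts: C1qc (0.12, SE 0.06), Tyrobp (0.15, SE 0.09) and Laptm5 (0.16, SE 0.09). Laptm5 was at 0.03 without KO replicate 5. Tmem119 overlapped (0.26, SE 0.10). Of 20 genes of immature neurons (median 0.13) 1 was separated and higher, where 2.91% of all genes were. It was Stmn1, a tubulin-binding protein of growing neurites (20863 to 22477 in WT, 23567 to 28151 in KO, difference 0.25, SE 0.06).

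The remaining lists gave medians of 0.06 for deep cortical layers, −0.20 for hippocampal neurons (0.06 without KO replicate 5), −0.02 for endothelial cells, −0.10 for mural cells and meninges, −0.08 for proliferating cells and 0.04 for the interferon response. Blood cell genes had a median of 0.34, and it ran from −0.31 to 0.78 as each library was left out. Cerebellar granule genes had a median of −0.26, Purkinje genes 0.00, olfactory genes −0.06 and the 2 tested pituitary hormones −0.36. Across these lists the separated genes were Fam84b, Ocln, Grm4 and Gng8, lower, and Rgs14, Ly6a and Irf7, higher. The lists had from 2 to 21 tested members, and none held more than 1 separated gene in either direction. Of all genes 2.06% were separated and lower and 2.91% separated and higher.

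KO replicate 5 was lowest of the 7 libraries in the choroid plexus, ependymal and myelin sums and highest in the upper-layer and scaffold sums, and WT replicate 6 was highest in the choroid plexus and immediate early sums. The part of these levels in the results on immediate early and synaptic genes was not tested. The 7 separated immediate early genes, Lgi2, Syt2 and Nefh were lower in KO in both batches. Their separation over the 7 libraries fixes this in advance, so it is no further support.

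**Figure D4:**
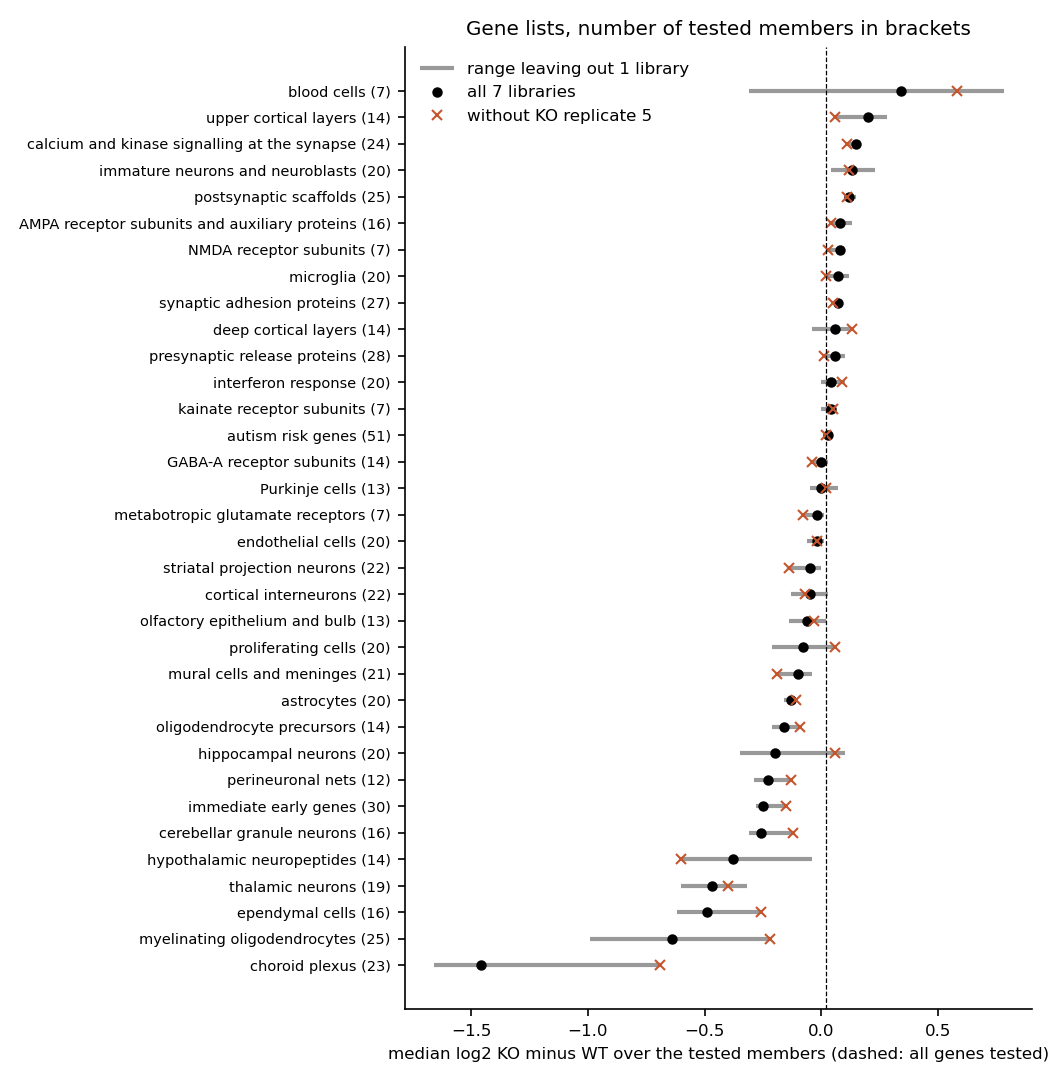
Median log2 difference, KO minus WT (x axis), over the tested members of each gene list (rows, 34 lists of 3 or more tested members, their number in brackets), with all 7 libraries (black points), the range when each library is left out (grey bars) and without KO replicate 5 (crosses). The dashed line is the median of all tested genes, 0.02; choroid plexus lies at −1.46 and moves to −0.69 without KO replicate 5, and the synaptic lists lie within 0.15 of 0.

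**Figure D5:**
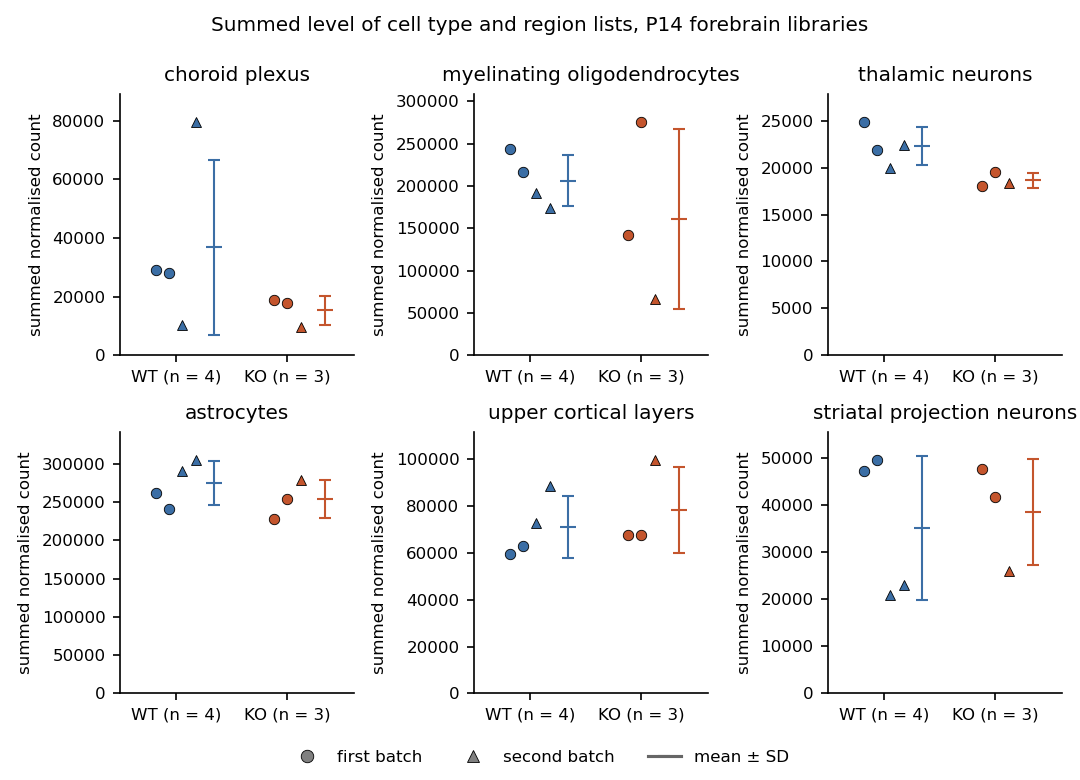
Summed normalised count (y axis, linear, from 0) of 6 cell type and region lists in each P14 forebrain library, WT (n = 4, blue) and KO (n = 3, orange), circles for the first and triangles for the second batch, mean ± SD beside them. KO replicates span the range of WT for myelin, from 66066 to 275753, the thalamic sums do not overlap, and the striatal sums split by batch.

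The KO effect in the 7 libraries was set against that in the other 5 P14 libraries, which hold cerebellar or olfactory markers. The interaction of genotype and library set passed for 0 of 18279 genes (0%) in limma, with 2875 at an unadjusted p under 0.05. Without WT replicate 3 it passed for 4335 genes and without KO replicate 1 for 453. These are the P14 libraries outside the rule with Cbln3 above 6000, and the count rests on them. Shank2 was at −0.52 (SE 0.23) in the 5 other libraries, and the median SE of a gene was 0.10 over the 7 libraries and 0.20 when all 12 P14 libraries were fitted together, where 0 genes passed.

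Against the 4 P25 forebrain libraries, 36 of 17805 genes (0.202%) differed in KO effect in limma, 34 with a higher value at P14 and 2 with a lower one. Of the 36, 12 belong to the list of 22 striatal genes, among them Adora2a, Rgs9, Drd1, Ppp1r1b and Penk, which mark striatal projection neurons. Adora2a, the adenosine receptor of indirect pathway neurons, differed by −0.06 at P14 and by −4.71 at P25. The summed striatal level was 20974 to 49551 in P14 WT and 25999 to 47688 in P14 KO, and it was 74228 to 118344 in P25 WT and 19172 to 23605 in P25 KO. Age and the striatal content of the P25 libraries cannot be told apart in this contrast. The count ran from 4 to 1015 as each library was left out and was 2 in the first batch. Without P14 KO replicate 2 or 5 it was 5 or 4, without P14 WT replicates 1, 2, 4 or 6 it was 4, 5, 21 or 20, without P25 WT replicate 1 it was 8, and without P25 KO replicate 3 it was 1015. The difference between ages in KO effect was 0.30 for Shank2 (SE 0.29, limma adjusted p = 0.752), −0.36 for Gm26793 (limma adjusted p = 0.926), 0.07 for LTO1 (limma adjusted p = 0.869) and 0.00 for Lgi2 (limma adjusted p = 0.998), none past the threshold at these group sizes.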

How the data were processed

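RNA from 24 mice, labelled as whole brain, was sequenced, and 7 P14 libraries were analysed here. Per the submitters' processing notes, the authors used Trimmomatic 0.35, TopHat2 2.1.0, HTSeq, DESeq2 and the build GRCm38. The deposited signal values are normalised counts, that is, read counts divided by a size factor per library. Each value was a whole multiple of what 1 read is worth in its library (100% whole within 0.01), so whole reads were recovered. Of 46078 gene IDs, 45229 matched GENCODE M21 symbols.

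limma 3.58.1 (R 4.3.3) with a mean-variance trend was fitted on log2(value + 1), pseudocount 1, for genes with a mean of at least 10 in the 7 libraries, with batch and genotype as terms, 4 residual degrees of freedom and Benjamini-Hochberg adjustment at 0.05. This scale understates changes of low genes. edgeR 4.0.16 and DESeq2 1.42.0 were run on the recovered reads. The script was tested on reads simulated with an assumed spread, no batch effect and 200 changed genes, and called 88.7% of 2-fold changes. The real libraries differ from that setting, so the share is not their detection rate. Counts of replicate pairs differed by more than sampling noise (chi-square per degree of freedom at least 5.9).

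Genes named are Shank2, Gm26793, the SHANK and NMDA receptor genes, the 10 smallest p in each direction (mean at least 50), up to 3 per list, and tested genes within 1 Mb of Shank2, some given only as counts; a few are not reported here. Fos, Fosl2, Junb, Dusp5, Ier2, Egr3, Ttr, Gja1, Tyrobp, Amotl1, Calm2, Unc13c, 9430038I01Rik, Lrrc27, Paox, Prr33, Baiap2l1, Cul3, Matn4, Ocln, Rgs14 and the striatal genes of the age contrast were named after their values were seen. The members and the 35 gene lists (637 genes) were chosen with earlier results of these data known. The fit of the 17 outside libraries and the omissions in the interactions and in counts of separated genes, and a block on library name prefixes, were added after seeing the data.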

Additional observations from a re-analysis of the deposited data

Results flagged for a closer look

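Among 132 sets of 4 WT values tested for a library far from the other 3, 9 held one, and chance flags about 1 in 20. WT replicate 6 stood apart with Junb at 1716, Sostdc1 at 457, Laptm5 at 938, a summed microglial level of 15630 and a summed endothelial level of 23894. WT replicate 4 stood apart with Prlr at 49.4, Cul3 at 4322 and a summed perineuronal net level of 60466, and WT replicate 1 with a summed pituitary hormone level of 117. The KO effect differed between P14 and P25 forebrain libraries by the interaction test for 36 genes, 12 of them on the striatal list. Adora2a was among them, with a difference of 4.64 between the ages.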

How the results depend on the processing

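The number of genes that passed was 1 under edgeR, limma-voom, trimmed-mean scaling, no filter, a mean of at least 50, pseudocounts of 0.1 and 5, and the first batch alone. It was 48 with DESeq2, 24 in the second batch alone, where the lone KO library is assumed to vary like the WT ones, and 0 without a batch term and with all 12 P14 libraries. It ran from 0 to 1 as each library was left out. The numbers at an unadjusted p under 0.05 were 554 without a batch term and from 451 (without KO replicate 5) to 2136 (without KO replicate 3). Within 10 Mb of Shank2, 21 of 118 tested genes had an unadjusted p under 0.05, where 9.22% of all genes did. The number was 10 without a batch term (554 of all genes), 13 in the first batch (595 of all genes) and 2 with all 12 P14 libraries. It ran from 12 to 27 as each library was left out, with 12 without KO replicate 5 (451 of all genes). The count for the other P14 libraries, 0, ran from 0 to 4335 as each library was left out, and the P25 count, 36, was 2 in the first batch and ran from 4 to 1015. Of 35 lists, 21 had a median below that of all genes, and 17 to 25 as each library was left out.

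Over 97 genes named in the text and 1836 alternative values, 22 turned the sign. With all 12 P14 libraries these were Lrrc55 (0.03), Zic5 (0.10), Ntng1 (0.09), Cttn (−0.04), Fosl2 (0.02), Lmo4 (−0.06), Slc4a4 (0.14), Tmem119 (−0.18), Gad1 (0.29), Foxp1 (−0.18), C1qc (−0.02), Tyrobp (−0.10), Laptm5 (−0.08), Kcnq1 (−0.17), Grm4 (0.17), Irf7 (−0.12) and Calm2 (0.00), and without KO replicate 3 Grin2a (−0.02; up to 0.24 without KO replicate 2). Adora2a was at 0.44 without a batch term, 0.08 in the second batch and from −0.16 to 0.08 as each library was left out. The cause was not tested. By replicate number the WT and KO libraries share 1 pair, too few for a block. The submitters' library names share a prefix, of unstated meaning, between WT replicate 2 and KO replicate 2 and between WT replicate 4 and KO replicate 5. A replicate block on the 5 prefixes, chosen after seeing the data, left 1 residual degree of freedom and passed 0 genes, with 1029 at an unadjusted p under 0.05. Under it Shank2 was at −0.89 (adjusted p = 0.703), Gm26793 at 3.59 and Lgi2 at −0.40. Group sizes of 4 and 3, not depth, set the smallest exact p.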
